A study of Homo sapiens with 6 samples.

Results

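The genes described here encode the extracellular matrix of HT-1080 cells and the receptors that hold on to it: collagen chains, laminin chains, matrix glycoproteins, the enzymes and the chaperone that process collagen, integrin chains and the hyaluronan receptor CD44. They were chosen by name from a list of 47 gene symbols, drawn up with earlier results of these data known. All 47 were found among the 20683 symbols counted in each library. HT-1080 is an established human fibrosarcoma cell line. Messenger RNA was counted in cells kept for 4 h with SLV-8472-01, a compound described as an inhibitor of the kinase IRAK4 and labelled 5 mM, or with 0.1% DMSO, the control. The label does not say whether 5 mM was the concentration on the cells, and its unit could not be checked. Each group had 3 libraries, described as biological replicates of this 1 line. The solvent content of the inhibitor wells was not stated.

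Collagens are triple helices of 3 chains. Fibrillar collagens build the cables of connective tissue, whereas collagen IV forms a sheet that, with laminins, nidogens and perlecan, makes up the basement membrane. Laminins are cross-shaped trimers of an alpha, a beta and a gamma chain. Integrins pair an alpha with a beta chain, bind these proteins outside the cell and connect them to actin inside it. New collagen chains are hydroxylated by prolyl and lysyl hydroxylases and held by a dedicated chaperone in the endoplasmic reticulum, and lysyl oxidases crosslink them after secretion.

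Library totals ran from 7644478 to 15336351 counts. On average an inhibitor library held 0.677 times the counts of a DMSO library (exact permutation test, two-sided, p = 0.1, which no 3 against 3 comparison can go below). Counts come from 1 amplified stretch per transcript, so levels are compared between libraries and not between genes. The mesenchymal marker VIM gave 43447 to 87855 counts in each library, and the cadherin CDH2 gave 534 to 1219. The fibroblast markers THY1 and FAP had at most 1 count. CDH1, which defines epithelium, and PTPRC, which defines leukocytes, had 0 counts in every library. The 5 epithelial markers together came to 1.07 to 1.43 CPM with the inhibitor and 0.914 to 1.97 CPM with DMSO. The 5 endothelial markers summed to 3.21 to 4.24 and 2.77 to 3.24 CPM, and the 5 leukocyte markers to 3.48 to 4.55 and 2.08 to 3.87 CPM. CPM, the normalised count, is a count per 1000000 counts of the library after scaling.

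With the inhibitor, 18 of the matrix and integrin genes rose, most of them by small amounts, and none fell. Of 47 genes, 45 had enough counts to test, of which 18 rose and 0 fell. A gene is said to have risen or fallen where edgeR's quasi-likelihood test gave an adjusted p under 0.05 over the whole table. Over all 11391 genes tested, 9.92% rose and 10.3% fell. The list was drawn up with earlier results of these data known, so its shares are not those of a blind choice. At an unadjusted p under 0.05, 24 of the 45 were higher and 0 lower, and DESeq2 called 17 higher and 0 lower. The median log2 fold change of the 45 was 0.273, against 0.00344 over all genes, and 41 of the 45 were positive. Only LAMB3 of the 45 passed a 2-fold difference. Every inhibitor library lay above every DMSO library for 25 of the 45, where 17.7% of all genes tested did so, and the reverse order was found for 0 of the 45 and 18.7% of all genes. With library totals alone as the scaling, 13 of the 45 rose and 0 fell, beside 831 genes that rose and 1714 that fell over the whole table, where the reported scaling gave 1130 and 1168. Under library totals the median of the 45 was 0.201 and 34 were positive, while the median of all genes shifted by -0.0711. In a bulk sample, a change in RNA per cell cannot be told apart from a change in which cells are present.

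**Figure D1:**
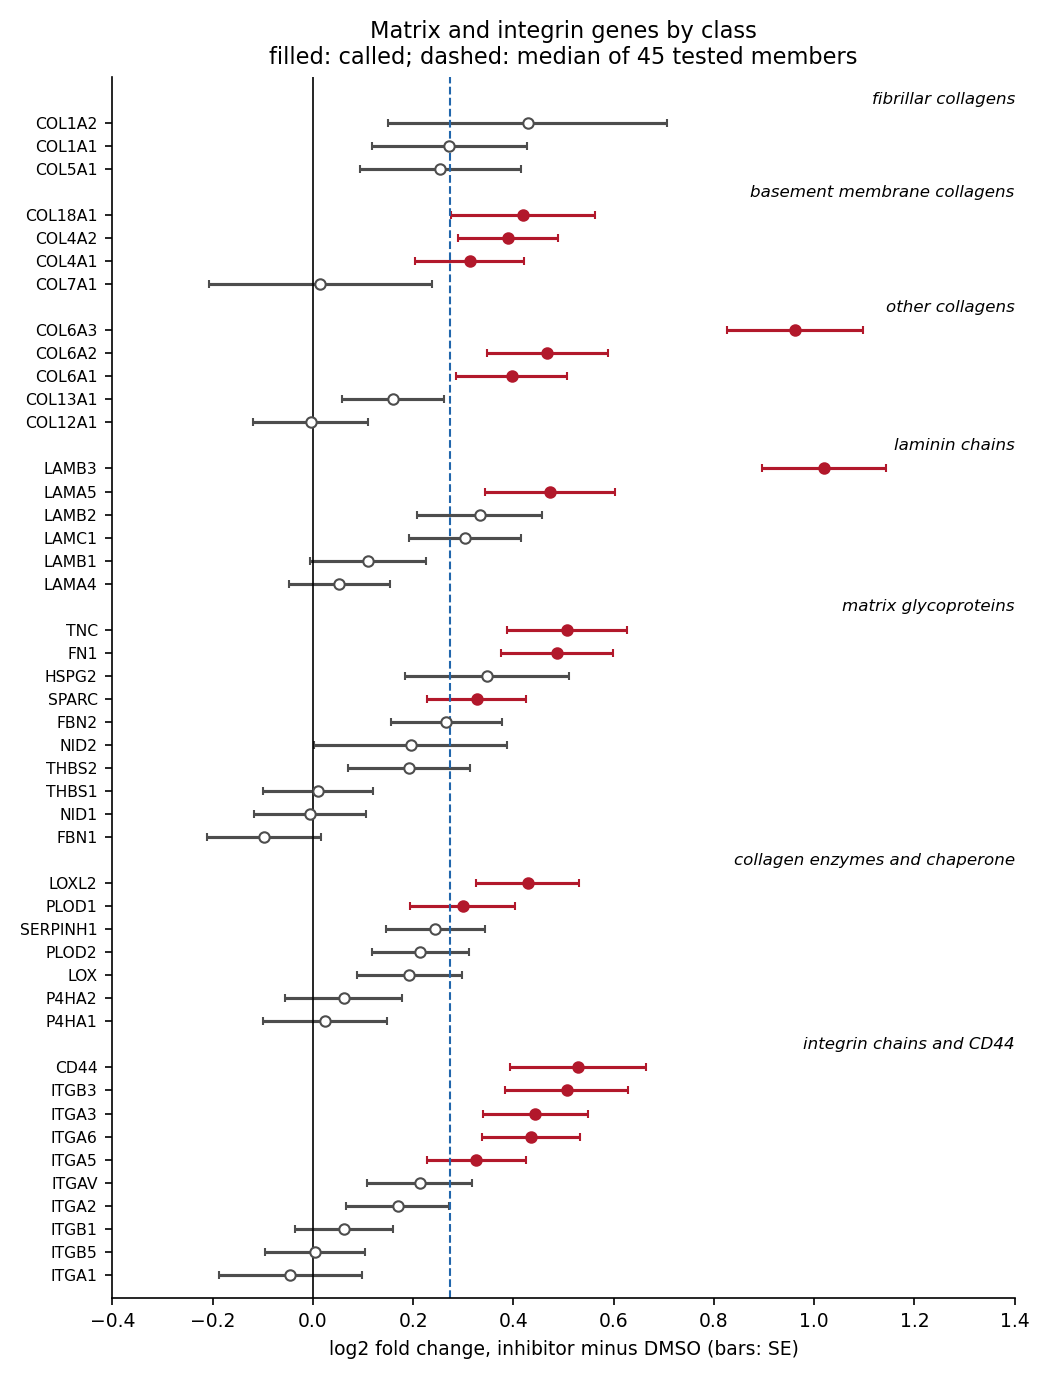
log2 fold change (inhibitor minus DMSO, x axis) of the 45 tested matrix and integrin genes, by class; points are estimates from 3 libraries per group, bars are SE, and filled points passed the test. Of the 45, 41 lie to the right of 0, and LAMB3 and COL6A3 lie farthest from it, at 1.02 and 0.96.

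The libraries did not contribute equally. Inhibitor replicate 1 had the highest value of all 6 libraries in 28 of the 45 genes, where it was highest in 19.5% of all genes tested. Among the 18 that rose it was highest in 15, while it was highest in 41.6% of the 1130 genes that rose over the whole table. The median of the 45 genes, relative to the mean of the DMSO libraries, was 0.371 on the log2 scale in inhibitor replicate 1, 0.205 in replicate 2 and 0.22 in replicate 3. In the DMSO libraries it lay between -0.01 and 0.014. Without inhibitor replicate 1, 10 of the 45 genes rose (22.2%, against 7.15% of all genes tested in that fit), and without DMSO replicate 2, 12 did (26.7%, against 5.95%). The 10 genes called without inhibitor replicate 1 were COL4A2, COL6A3, LAMB3, FN1, TNC, LOXL2, ITGA3, ITGA6, ITGB3 and CD44, and these were called under every one of the 13 alternatives run. With all libraries thinned to the smallest total of 7644478 counts, 17 rose.

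**Figure D2:**
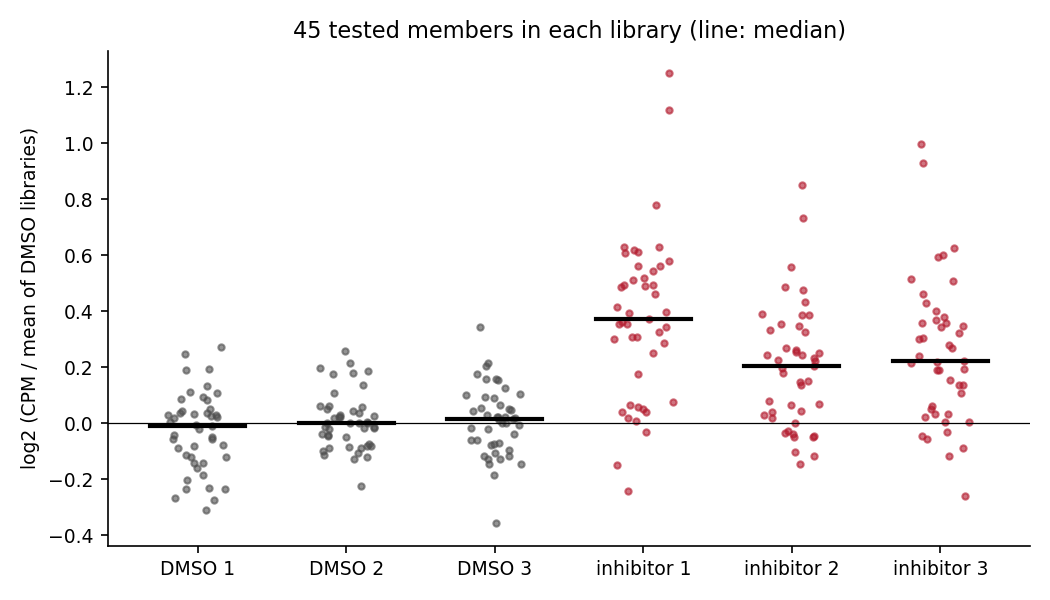
log2 of the normalised count of each of the 45 tested genes over its mean in the DMSO libraries (y axis), by library (x axis); points are genes and lines are medians. The 3 inhibitor libraries have medians of 0.371, 0.205 and 0.22, all above the DMSO libraries, and inhibitor replicate 1 is the highest.

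Among the collagens, chains of types IV, VI and XVIII rose, and the fibrillar chains were too low to test or were not called. None of the 3 fibrillar chains tested was called by edgeR, by DESeq2 or at an unadjusted p under 0.05. Their median log2 fold change was 0.273, the same as that of the 45 genes. Each had a larger SE than any collagen of the 45 that rose, and no difference between the classes was tested. COL1A1, the alpha1 chain of type I collagen, was at 14.5, 11.4 and 16.7 CPM with the inhibitor and 11.3, 12.2 and 11.7 CPM with DMSO (log2 fold change 0.27 ± 0.15, SE, adjusted p = 0.227). Its partner COL1A2 was at 3.49, 2.07 and 2.54 CPM with the inhibitor and 2.1, 1.94 and 2.08 CPM with DMSO (0.43 ± 0.28, adjusted p = 0.295). In both genes the groups overlapped through inhibitor replicate 2. COL5A1, a chain of the type V collagen that nucleates fibrils, had 0.25 ± 0.16 and overlapped as well. COL3A1 had 0 counts in 5 libraries and 2 in DMSO replicate 2, and COL5A2 had 4 to 8 counts in every library, so neither was tested in the reported fit. By counting error alone, a library with 0 counts could hold a gene at up to 0.196 CPM (the deepest library) or 0.392 CPM (the shallowest).

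Of the 4 collagens of the basement membrane zone, 3 rose, with a class median of 0.351, where 9.92% of all genes tested rose. COL4A2 was at 595, 499 and 541 CPM with the inhibitor and 404, 422 and 422 CPM with DMSO, a rise of 0.39 ± 0.10 on the log2 scale (adjusted p = 0.00809). COL4A1, which winds with COL4A2 into the common collagen IV trimer, was at 363, 297 and 300.3 CPM with the inhibitor and 234, 259 and 282 CPM with DMSO (0.31 ± 0.11, adjusted p = 0.0441). The groups were separate in both, but in COL4A1 the lowest inhibitor library lay close to the highest DMSO library. COL18A1, the source of the fragment endostatin, was at 16.6, 15.4 and 15 CPM with the inhibitor and 10.6, 11.7 and 13.1 CPM with DMSO (0.42 ± 0.14, adjusted p = 0.0426). COL7A1, which forms the anchoring fibrils beneath epithelia, was at 4.21, 4.24 and 3.88 CPM with the inhibitor and 4.13, 4.84 and 3.16 CPM with DMSO (0.02 ± 0.22, adjusted p = 0.967). Neither COL4A1 nor COL18A1 was called once replicate 1 or 2 of either group was left out (adjusted p between 0.0525 and 0.206 for COL4A1 and between 0.0866 and 0.157 for COL18A1). COL18A1 was also not called by DESeq2 (adjusted p = 0.0664), without the count filter (0.0572) or in thinned libraries (0.11), and neither was called with library totals as the scaling (adjusted p = 0.108 for COL4A1 and 0.0906 for COL18A1).

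COL4A1 and COL4A2 lie head to head on chromosome 13 and are read in opposite directions from 1 short stretch of DNA. It is shown because it lies between the starts of 2 genes that both rose, and its part in the rise was not tested. The stretch between the starts that RefSeq gives, chr13:110307158-110307283 (GRCh38.p14), is 126 bases long and is written on the strand of COL4A2, with a CCAAT box (CCAAT) and a GC box (GGGCGG) in capitals.

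COL4A1-COL4A2: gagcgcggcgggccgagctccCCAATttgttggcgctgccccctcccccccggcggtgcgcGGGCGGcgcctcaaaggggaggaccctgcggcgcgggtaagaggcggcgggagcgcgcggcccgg

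Type VI collagen forms beaded microfilaments around cells from 3 chains, and all 3 rose. COL6A3 had the largest rise of any collagen among the 45 genes, with 42.2, 32.3 and 38.8 CPM with the inhibitor and 16.2, 22.1 and 20 CPM with DMSO (0.96 ± 0.14, adjusted p = 2.82e-05). COL6A2 was at 103, 74.8 and 102 CPM with the inhibitor and 66.9, 72.6 and 62.6 CPM with DMSO (0.47 ± 0.12, adjusted p = 0.00852). COL6A1 was at 309.9, 249 and 299 CPM with the inhibitor and 205, 202 and 246 CPM with DMSO (0.40 ± 0.11, adjusted p = 0.0139). All 3 had separate groups, with inhibitor replicate 2 lowest of the inhibitor libraries each time. In COL6A1 and COL6A2 that library lay only just above the highest DMSO library. COL6A1 and COL6A2 are neighbours on chromosome 21, as COL4A1 and COL4A2 are on chromosome 13, while COL6A3 lies on chromosome 2. COL12A1, which coats collagen fibrils, was at 40.9, 40.4 and 39.5 CPM with the inhibitor and 37.2, 45.7 and 38.4 CPM with DMSO (-0.00 ± 0.11, adjusted p = 0.981). COL13A1, a collagen with a membrane-spanning segment, had 0.16 ± 0.10 (adjusted p = 0.282), although its inhibitor libraries all lay above the DMSO libraries. Without inhibitor replicate 1, COL6A3 alone of these chains was called (0.064 for COL6A1 and 0.0524 for COL6A2, adjusted p). COL6A1 was also not called without DMSO replicate 1 (adjusted p = 0.0647) or DMSO replicate 2 (0.0926).

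Of the 6 laminin chains, 2 rose and 0 fell, with a median of 0.319, where 9.92% of all genes tested rose and 10.3% fell. LAMB3, the beta chain of the laminin that anchors epithelial cells through hemidesmosomes, had the largest rise of the 45 genes, with 1301, 985 and 1041 CPM with the inhibitor and 649, 468 and 524 CPM with DMSO (1.02 ± 0.12, adjusted p = 4.23e-06). Its lowest inhibitor library was well above its highest DMSO library. LAMA5, the alpha chain of many adult basement membranes, was at 29, 26.3 and 23.3 CPM with the inhibitor and 20.2, 19.5 and 17.1 CPM with DMSO (0.47 ± 0.13, adjusted p = 0.012). Leaving out inhibitor replicate 1 (adjusted p = 0.0717) or DMSO replicate 3 (0.0602) ended this call.

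The other 4 laminin chains did not pass the test. LAMC1, the common gamma chain, was at 427, 389.9 and 312 CPM with the inhibitor and 313, 287 and 316 CPM with DMSO (0.30 ± 0.11, adjusted p = 0.0578). Inhibitor replicate 3 fell inside the DMSO range, and the gene was called without that library (0.42, adjusted p = 0.00636), without the count filter (adjusted p = 0.0465) and at a minimum mean of 10 CPM (0.0497). LAMB2 was at 45.2, 38.4 and 37.5 CPM with the inhibitor and 27.4, 33.3 and 35.9 CPM with DMSO (0.33 ± 0.12, adjusted p = 0.0625), with separate groups, and was called without inhibitor replicate 3 (adjusted p = 0.0432) or DMSO replicate 3 (0.0489). LAMB1 had 0.11 ± 0.12 (adjusted p = 0.539). LAMA4, an alpha chain of vessel and muscle laminins, had 0.05 ± 0.10 (adjusted p = 0.757).

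The stretches before the starts of LAMB3 and COL6A3 are shown because these genes had the 2 largest rises of the 45, and that of FN1, described next, for contrast in sequence. Each is the 250 bases before the start that RefSeq gives (GRCh38.p14; the first of 3 listed starts for LAMB3), read 5′ to 3′ towards the gene on the minus strand. Capitals mark the letters of the motifs searched on both strands: the CCAAT box (CCAAT), the GC box (GGGCGG), the TATA box (TATAAA), the AP-1 motif (TGANTCA) and the TEAD motif (GGAATG). They lie at chr1:209652426-209652675 for LAMB3, chr2:237414165-237414414 for COL6A3 and chr2:215436069-215436318 for FN1.

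LAMB3: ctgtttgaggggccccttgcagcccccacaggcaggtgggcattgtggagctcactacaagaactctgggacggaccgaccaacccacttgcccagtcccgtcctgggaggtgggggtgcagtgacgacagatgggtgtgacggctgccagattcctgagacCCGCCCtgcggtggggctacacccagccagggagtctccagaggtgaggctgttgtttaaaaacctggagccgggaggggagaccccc

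COL6A3: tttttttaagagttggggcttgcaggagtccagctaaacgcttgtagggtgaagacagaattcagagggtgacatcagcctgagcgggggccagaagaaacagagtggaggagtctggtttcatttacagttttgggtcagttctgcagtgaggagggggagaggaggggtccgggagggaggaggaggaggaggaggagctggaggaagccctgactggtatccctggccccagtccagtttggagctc

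FN1: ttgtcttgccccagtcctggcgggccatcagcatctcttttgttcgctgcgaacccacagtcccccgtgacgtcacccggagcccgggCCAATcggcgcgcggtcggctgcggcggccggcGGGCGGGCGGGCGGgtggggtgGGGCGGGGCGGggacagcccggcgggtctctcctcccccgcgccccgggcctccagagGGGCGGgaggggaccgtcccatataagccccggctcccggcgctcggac

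LAMB3 had a single GC box in this window, COL6A3 had no match to any of the 5 motifs, and FN1 had 6 GC boxes, some sharing bases, and a CCAAT box. Promoter windows were found for 39 of the 47 genes, 14 of which rose and 25 of which were not called. Only the first listed window of each gene was searched, and some genes have further starts that were not. The GC box was in 11 of the 14 and in 16 of the 25. It was in 68.6% of the 8918 tested genes with a window and in 42.3% of all 27305 first windows. CCAAT was in 3 of the 14 and 7 of the 25 (35.6% of tested genes and 33% of all first windows). TATAAA was in 2 and 4 (5% and 11.1%), and GGAATG in 2 and 5 (9.2% and 11.9%). TGANTCA was in 0 of the 39 (4% and 6.6%). The median GC content of the window was 70.2% in the 14 genes that rose and 69.6% in the 25 not called, against 65.2% in tested genes. These matches are letters in a window and were not tested as sites.

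Of the 10 matrix glycoproteins, 3 rose and 0 fell, with a median of 0.231, where 9.92% of all genes tested rose and 10.3% fell. TNC, which encodes the anti-adhesive protein tenascin-C, was at 55, 47.9 and 58.2 CPM with the inhibitor and 43, 35.6 and 34.6 CPM with DMSO (0.51 ± 0.12, adjusted p = 0.00432). FN1, which encodes fibronectin, the main ligand of integrin alpha5, was at 395, 349.6 and 379.9 CPM with the inhibitor and 228, 311 and 264 CPM with DMSO (0.49 ± 0.11, adjusted p = 0.00364). SPARC, a collagen-binding protein of remodelling matrix, was at 2348, 2325 and 2029 CPM with the inhibitor and 1819, 1753 and 1772 CPM with DMSO (0.33 ± 0.10, adjusted p = 0.0221). The groups were separate in all 3. SPARC had adjusted p from 0.0583 to 0.0934 when inhibitor replicate 1 or 2 or any DMSO library was left out, or with library totals as the scaling, and was not called there.

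THBS1, which encodes the secreted thrombospondin that activates latent TGF-beta, was at 1463, 1454 and 1280.2 CPM with the inhibitor and 1278, 1278 and 1612 CPM with DMSO (0.01 ± 0.11, adjusted p = 0.955). DMSO replicate 3 was the highest of all 6 libraries. THBS2, its paralog, had 0.19 ± 0.12 (adjusted p = 0.283). The nidogens, which bridge laminin and collagen IV, were at -0.01 ± 0.11 for NID1 and 0.20 ± 0.19 for NID2 (adjusted p = 0.975 and 0.512). FBN1, the fibrillin of adult microfibrils, had the lowest log2 fold change of the 45 genes, -0.10 ± 0.11 (adjusted p = 0.587). The related FBN2 was at 49, 42 and 45.7 CPM with the inhibitor and 37.7, 37.5 and 38.5 CPM with DMSO (0.27 ± 0.11, adjusted p = 0.0918), with separate groups that did not pass the test. HSPG2, which encodes perlecan, had 0.35 ± 0.16 (adjusted p = 0.14) and was called without inhibitor replicate 2 (0.50, adjusted p = 0.0464).

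Of the 7 enzyme and chaperone genes of collagen, 2 rose and 0 fell, with a median of 0.214, and 5 had separate groups. Over all genes tested, 9.92% rose and 10.3% fell, and in 17.7% every inhibitor library lay above every DMSO library. The class was not tested against these shares. LOXL2, a lysyl oxidase that crosslinks collagen IV, was at 562, 471 and 486 CPM with the inhibitor and 389, 392 and 347 CPM with DMSO (0.43 ± 0.10, adjusted p = 0.0052). LOX, the founding member of that family, was at 106, 95.3 and 87.3 CPM with the inhibitor and 84.5, 83.2 and 84.9 CPM with DMSO (0.19 ± 0.10, adjusted p = 0.207). PLOD1, a lysyl hydroxylase of the collagen helix, was at 159, 140.1 and 141 CPM with the inhibitor and 131, 116 and 112 CPM with DMSO (0.30 ± 0.10, adjusted p = 0.0469). PLOD1 was not called when inhibitor replicate 1 or 2, or DMSO replicate 2 or 3, was left out (adjusted p between 0.0725 and 0.172), with library totals as the scaling (0.133) and with no count filter (0.0632). PLOD2, which hydroxylates the ends of the chains, was at 772, 813 and 794 CPM with the inhibitor and 647, 713 and 689.9 CPM with DMSO (0.21 ± 0.10, adjusted p = 0.121). SERPINH1, the collagen chaperone, had 0.24 ± 0.10 (adjusted p = 0.0861) and was called without inhibitor replicate 3 (0.31, adjusted p = 0.0366). P4HA1 and P4HA2, the catalytic subunits of prolyl hydroxylase, had 0.02 ± 0.12 and 0.06 ± 0.12 (adjusted p = 0.912 and 0.752), and their groups overlapped.

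Of the 10 receptor genes, 5 rose and 0 fell, with a median of 0.27, where 9.92% of all genes tested rose and 10.3% fell. Among them, 3 alpha chains rose. ITGA6, a laminin receptor chain, was at 563, 573 and 523 CPM with the inhibitor and 434, 404 and 389 CPM with DMSO (0.44 ± 0.10, adjusted p = 0.00308). ITGA3, which also binds laminin, was at 1574, 1241 and 1386 CPM with the inhibitor and 995, 995 and 1099 CPM with DMSO (0.44 ± 0.11, adjusted p = 0.00469). ITGA5, the fibronectin receptor chain, was at 818, 728 and 798 CPM with the inhibitor and 634, 588 and 648 CPM with DMSO (0.33 ± 0.10, adjusted p = 0.0216). No inhibitor library of these 3 genes reached down to the DMSO range. ITGA5 was not called when inhibitor replicate 1, DMSO replicate 1 or DMSO replicate 2 was left out (adjusted p = 0.063, 0.0555 and 0.12) and with library totals as the scaling (0.0619).

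ITGB3, the beta chain that pairs with integrin alphaV to bind vitronectin, was at 49.4, 47 and 39.4 CPM with the inhibitor and 36.4, 30.1 and 29.2 CPM with DMSO (0.51 ± 0.12, adjusted p = 0.00559). CD44 was at 21.9, 20 and 22.4 CPM with the inhibitor and 13.4, 17 and 14 CPM with DMSO (0.53 ± 0.14, adjusted p = 0.00835). Both had separate groups. ITGB1, the beta chain shared by the collagen, laminin and fibronectin receptors, was at 504, 516 and 551 CPM with the inhibitor and 531, 472 and 502 CPM with DMSO (0.06 ± 0.10, adjusted p = 0.7). ITGB5 was at 156, 155 and 142 CPM with the inhibitor and 153, 154 and 144 CPM with DMSO and had 0.00 ± 0.10 (adjusted p = 0.98). In these 2 beta chains the groups overlapped. ITGAV had 0.21 ± 0.11 (adjusted p = 0.161) with separate groups. The collagen receptor chains ITGA1 and ITGA2 had -0.04 ± 0.14 and 0.17 ± 0.10 (adjusted p = 0.858 and 0.258).

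**Figure D3:**
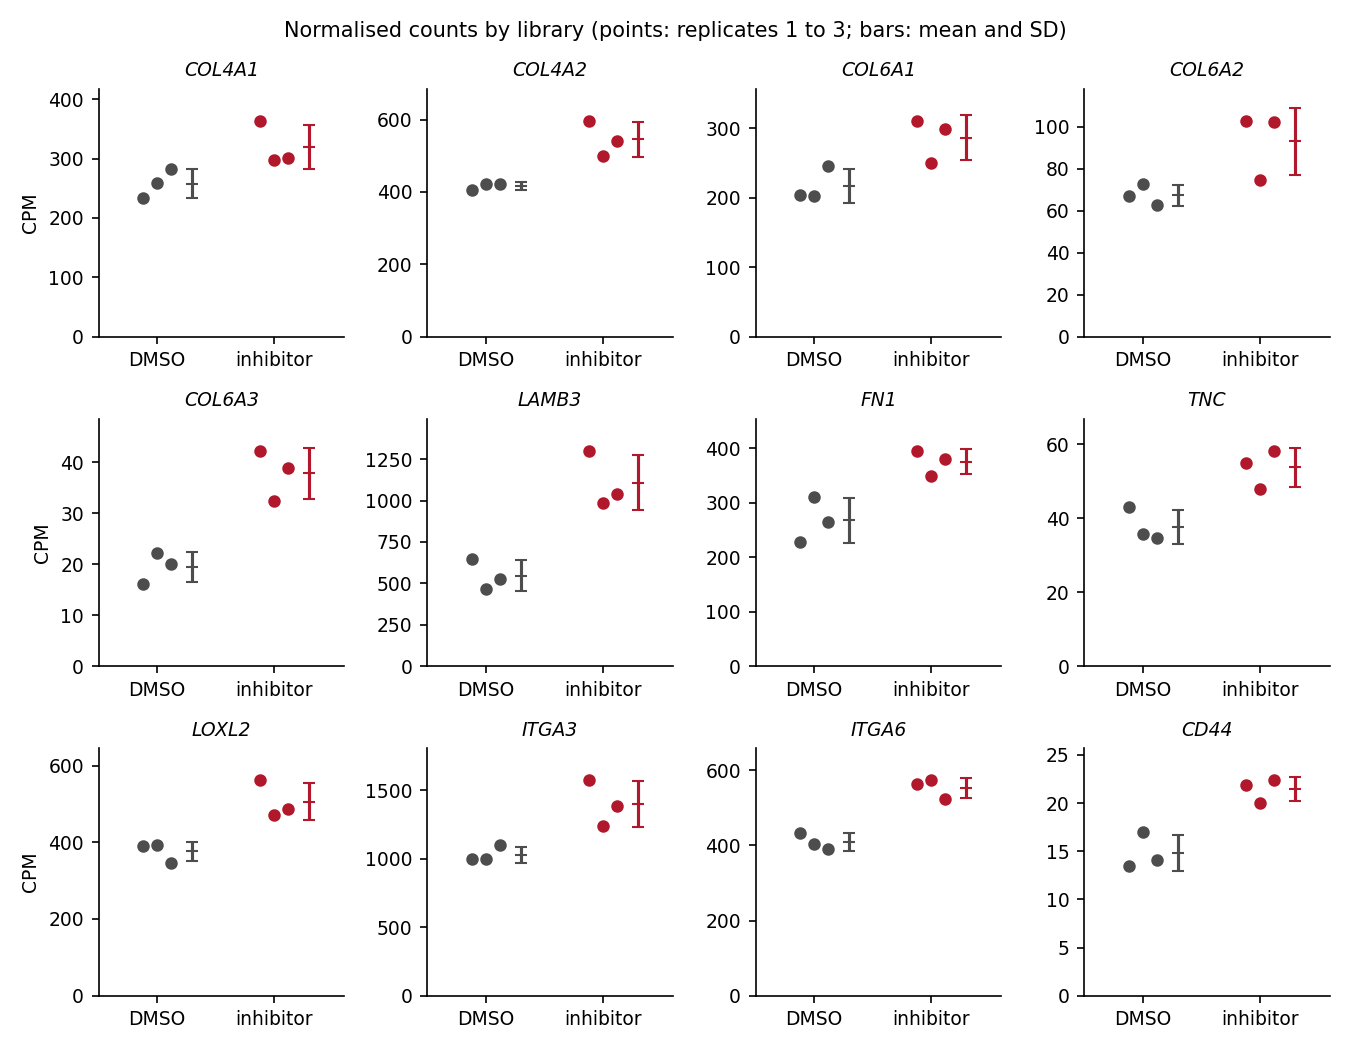
Normalised counts (CPM, y axis from 0) of 12 genes that rose, by group; points are replicates 1 to 3 from left to right and bars are mean and SD. In each panel every inhibitor library lies above every DMSO library, by the least in COL6A1, COL6A2 and COL4A1.

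Whether partner chains changed by the same amount was read from the ratio of their counts within each library, which needs no scaling between libraries. Of 18 pairs listed, 16 had enough counts, and 7 had ratios that did not overlap between the groups. Each of these had p = 0.1, the floor of the two-sided exact permutation test with this design, and an adjusted p = 0.229 over the 16 pairs, so no pair passed. Among single genes, 4140 of the 11391 tested did not overlap between the groups either. Ratios of other gene pairs were not computed, so the separate ratios below are descriptions only. COL6A3 to COL6A1 was 0.136, 0.13 and 0.13 with the inhibitor and 0.079, 0.109 and 0.0814 with DMSO, a difference of 0.57 on the log2 scale. The ratio was higher in each inhibitor library than in any DMSO library. COL4A1 to COL4A2 was 0.61, 0.596 and 0.555 with the inhibitor and 0.578, 0.613 and 0.668 with DMSO (exact permutation p = 0.4), and the groups overlapped. COL6A1 to COL6A2 also overlapped, with a difference of -0.06 on the log2 scale (exact permutation p = 0.8). The third pair of neighbouring genes, COL3A1 and COL5A2, had too few counts for a ratio.

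For 2 integrin alpha chains, the ratio to the shared beta chain did not overlap between the groups. ITGA3 to ITGB1 was 3.12, 2.4 and 2.51 with the inhibitor and 1.87, 2.11 and 2.19 with DMSO, and ITGA5 to ITGB1 was 1.62, 1.41 and 1.45 with the inhibitor and 1.19, 1.25 and 1.29 with DMSO. In both pairs the ratio was higher in every inhibitor library, by 0.38 and 0.26 on the log2 scale. ITGAV to ITGB5 was 0.674, 0.6 and 0.683 with the inhibitor and 0.598, 0.549 and 0.542 with DMSO, where the lowest inhibitor value was only just above the highest DMSO value. ITGAV to ITGB1 overlapped. Among paralogs, the ratio was lower in every inhibitor library for FBN1 to FBN2 (-0.35), LOX to LOXL2 (-0.24) and LAMB1 to LAMB2 (-0.23, log2 scale). The groups overlapped for COL1A1 to COL1A2, LAMB1 to LAMC1, NID1 to NID2, THBS1 to THBS2, P4HA1 to P4HA2 and PLOD1 to PLOD2.

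**Figure D4:**
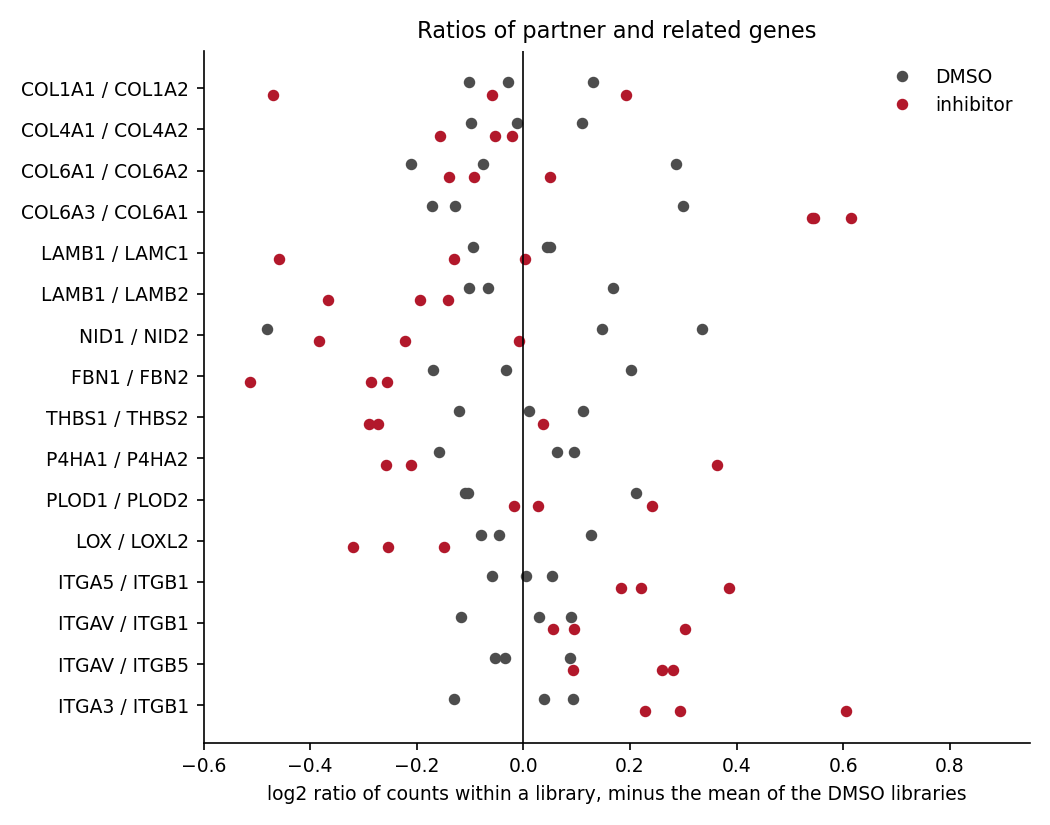
log2 ratio of the counts of 2 genes within a library, minus the mean of the DMSO libraries (x axis), for 16 pairs (y axis); each point is 1 library. The 3 inhibitor libraries lie to the right of all DMSO libraries for COL6A3 to COL6A1, ITGA5 to ITGB1, ITGAV to ITGB5 and ITGA3 to ITGB1, and to the left for LAMB1 to LAMB2, FBN1 to FBN2 and LOX to LOXL2.

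The rest of the matrix and adhesion genes were taken from 7 wider lists, also drawn up with earlier results of these data known. Of 26 further matrix glycoproteins and proteoglycans tested, 8 (30.8%) rose and 0 fell, where 9.92% of all genes rose and 10.3% fell (median 0.262; 0 lower at an unadjusted p under 0.05 by edgeR, and 0 by DESeq2). CTGF and CYR61, matricellular proteins induced in adherent cells, rose by 0.56 ± 0.10 and 0.43 ± 0.10 (adjusted p = 4.85e-04 and 0.00463), and LTBP4, which tethers latent TGF-beta, by 0.54 ± 0.14 (adjusted p = 0.00794). Of 5 further laminin and netrin chains, 2 rose and 0 fell (0 lower at an unadjusted p under 0.05 and 0 by DESeq2). Among them was NTN4, which encodes a netrin of basement membranes (0.56 ± 0.11, adjusted p = 9.81e-04). Of 30 further collagen chains only 5 had enough counts to test. COL8A1, a short-chain collagen, rose by 0.83 ± 0.25 (adjusted p = 0.0198), although its groups overlapped, and 0 fell by edgeR, by DESeq2 or at an unadjusted p under 0.05. Of 25 further genes of collagen folding, secretion and crosslinking, 3 (12%) rose, a share near the 9.92% of all genes, and 0 fell (median 0.121; 0 lower at an unadjusted p under 0.05 and 0 by DESeq2). They were the prolyl isomerase FKBP10 (0.55 ± 0.11), the procollagen proteinase BMP1 (0.48 ± 0.13) and MIA2 (0.40 ± 0.13), which acts in the export of large cargo.

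Falls were found among the further integrin chains and the adhesion complex, but not among the other matrix receptors. Of 8 further integrin chains tested, 2 rose and 1 fell (37.5% called, beside 20.2% over all genes). ITGB8, a beta chain that pairs with integrin alphaV, fell at low counts, from 33, 57 and 38 counts in the DMSO libraries to 10, 8 and 10 in the inhibitor libraries (log2 fold change -1.54 ± 0.34, adjusted p = 0.00254). ITGB4, which pairs with ITGA6, rose by 0.80 ± 0.25 (adjusted p = 0.0241) from 3.47 ± 0.781 to 5.94 ± 2.16 CPM (SD, n = 3), and ITGA10 by 0.38 ± 0.12 (adjusted p = 0.0255). The ITGB4 libraries were at 8.42, 4.46 and 4.95 CPM with the inhibitor and 4.2, 2.65 and 3.57 CPM with DMSO. Inhibitor replicate 1 was thus far the highest, and replicate 2 lay close to DMSO replicate 1. Of 16 other matrix receptors, 3 (18.8%, where 9.92% of all genes rose) rose and 0 fell (median 0.204; 0 lower at an unadjusted p under 0.05, and DESeq2 called 4 higher and 0 lower). The collagen receptor kinase DDR2 rose from 103 ± 13.3 to 189 ± 11.9 CPM (0.88 ± 0.11, SE, adjusted p = 6.56e-06), the glypican GPC6 by 0.57 ± 0.13 and the collagen uptake receptor MRC2 by 0.53 ± 0.10. Of 33 proteins of the integrin adhesion complex, 5 rose and 2 fell, with a median of 0.0586, and the share called was 21.2% beside 20.2% over all genes. VCL, which links talin to actin, rose by 1.30 ± 0.14, and the LIM protein FHL2 by 0.56 ± 0.10 (adjusted p = 9.53e-07 and 6.86e-04). The 2 that fell, CRK and LASP1, are named after their values were seen.

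The 45 genes span long stretches of genome. The median gene length in RefSeq was 67.6 kb for the 18 that rose and 89.6 kb for the 27 not called, against 32.4 kb for 10521 tested genes with a length. Across those tested genes, length and log2 fold change had a Spearman rho of -0.065, and across the 45 genes of -0.186. Both are descriptions across genes of the same 6 libraries, and genes are not independent replicates.

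**Figure D5:**
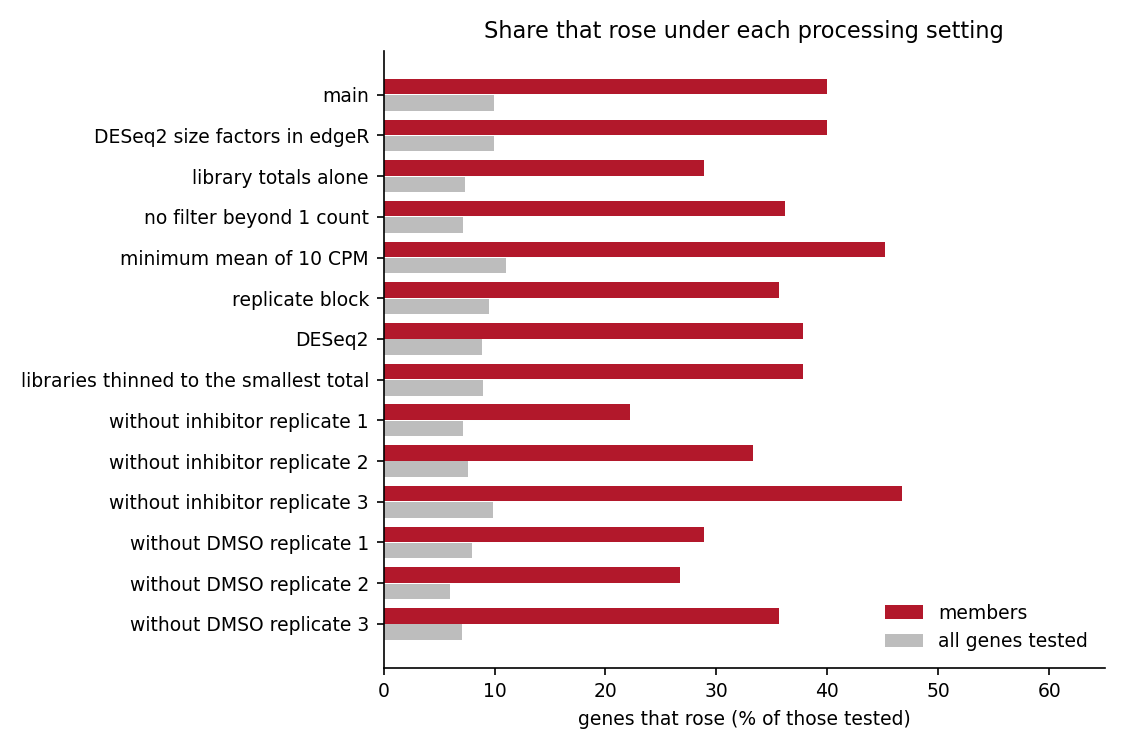
Share of genes that rose (percent of those tested, x axis from 0) among the 45 matrix and integrin genes and among all genes tested, for the reported analysis ("main") and 13 alternatives (y axis). The share of the matrix and integrin genes is lowest without inhibitor replicate 1 (22.2%) and highest without inhibitor replicate 3 (46.7%), and the share of all genes from 5.95% to 11%.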

How the data were processed

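The 6 libraries were prepared from HT-1080 RNA with a targeted kit, the Ion AmpliSeq Transcriptome panel, in which multiplex PCR copies 1 region of a transcript, per the labels' protocols. The series design names the Ion Torrent Proton as the sequencer. The authors deposited a table of raw read counts per gene symbol for each library, without normalization. The submitters' processing notes list HTSeq, DESeq2 1.20.0 and hg19 but not what each was used for. For the aligner, annotation and strand setting the entry is "not given in the sources used here", so overlapping genes may share reads. Reads lack molecular identifiers, so limits for a count of 0 cover counting error only.

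Sample titles gave the groups. Replicates were compared by chi-square over genes (9.32 to 14.7 per degree of freedom, above sampling noise), and each library was taken as 1 replicate. Apart from the words biological replicates nothing says that cultures were separate, so p-values measure the spread between these libraries.

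The fit used edgeR 4.0.16 in R 4.3.3. After filterByExpr with the group, 11391 genes (99.924% of the counts) were scaled by TMM (factors from 0.97348 to 1.0469) and tested with glmQLFit and glmQLFTest on the group alone, with Benjamini-Hochberg adjustment over all of them. SE was obtained from the fold change and the F statistic. The alternatives were 2 other scalings (DESeq2 size factors, library totals), 2 other filters (none, or a mean of at least 10 CPM), the replicate number as a block, DESeq2 1.42.0 in place of edgeR, thinning to equal totals, and leaving out each library. Ratios of 2 genes needed a mean of 20 counts in each. In a simulation of this comparison with 11301 genes, the test found 64% of changes of 0.5 and 90% of changes of 1 (log2), and 6 of its 177 calls were false. The simulation changed far fewer genes than the 2298 called in the data. It also gave each gene the spread of the trend over expression level, not its own, so these rates may differ in the data.

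The genes, their classes and the wider lists were chosen with earlier results of these data known. Every listed gene is described. From each wider list, up to 3 called genes with the largest absolute log2 fold change are named or, where none was called, the 1 with the smallest p. Some genes that this rule selects are not reported here. Promoter windows and gene lengths are from RefSeq on GRCh38.p14, which is not the build in the notes, and were joined by symbol.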

Additional observations from a re-analysis of the deposited data

How the results depend on the processing

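Of the 18 genes that rose, 10 kept the call under all 13 alternatives and 8 lost it under at least 1. The losses are given beside each gene, except for those under the replicate block. COL18A1 lost its call under 9 and COL4A1 under 6 of the 13. None of the 18 changed sign. Of the 27 that were not called, 23 were called under no alternative, and LAMB2, LAMC1, HSPG2 and SERPINH1 were called under at least 1. Leaving out 1 library gave 10 to 21 of these genes that rose (684 to 1133 of all genes rose and 721 to 1113 fell). By class, the number that rose then ran from 1 to 3 for the basement membrane collagens, from 1 to 3 for the other collagens, from 1 to 4 for the laminin chains and from 1 to 3 for the collagen enzymes and chaperone. With library totals as the scaling, 1 basement membrane collagen and 1 collagen enzyme gene rose, and without the count filter 1 collagen enzyme gene. The cause was not tested. That scaling shifted the median of all genes by -0.0711 on the log2 scale. The replicate block left 16 of the 45 genes called and 1 basement membrane collagen, without COL4A1 (adjusted p = 0.0578) and COL18A1 (0.0505). Same-numbered libraries had correlations of 0.0317, -0.0166 and 0.00693 between their deviations from the group means, so no shared deviation was seen. Values this near 0 cannot tell whether same-numbered libraries were handled together. No library correlated best with the library of its own number. Some genes near 0, none of them called, had the opposite sign. Their log2 fold changes were, with library totals as the scaling COL7A1 -0.059, LAMA4 -0.018, THBS1 -0.058, P4HA1 -0.049, P4HA2 -0.00903, ITGB1 -0.0085 and ITGB5 -0.068; without the count filter COL7A1 -0.0012, THBS1 -0.0056 and ITGB5 -0.012; in thinned libraries COL7A1 -0.046, COL12A1 0.00064 and NID1 0.016; at a minimum mean of 10 CPM COL12A1 0.0075 and NID1 0.0064; with the replicate block COL12A1 0.00096 and NID1 0.0015. With 1 library left out they ran from -0.12 to 0.16 for COL7A1, -0.065 to 0.088 for COL12A1, -0.035 to 0.21 for LAMB1, -0.052 to 0.13 for THBS1, -0.10 to 0.075 for NID1, -0.10 to 0.14 for P4HA1, -0.082 to 0.14 for P4HA2, -0.18 to 0.15 for ITGA1 and -0.029 to 0.046 for ITGB5. COL3A1 and COL5A2, at no more than 8 counts in any library, were tested only without the count filter, where neither was called. A difference in either could be missed at this depth.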
